A study of Mus musculus with 6 samples.

Results

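Cholesterol and fatty acids are built from acetyl-CoA in the cytosol and the endoplasmic reticulum. The mevalonate pathway turns acetyl-CoA into isoprenoids, squalene synthesis and cyclisation commit them to sterols, and a chain of demethylation, isomerisation and reduction steps yields cholesterol. SREBP transcription factors, released from the endoplasmic reticulum by the escort protein SCAP when sterols are low, drive most genes of both routes. In the retina, photoreceptors and Mueller glia need new membrane lipid while outer segments form, and photoreceptor membranes are rich in very long and highly unsaturated fatty acids.

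A set of 33 genes of these routes was followed in retinal total RNA of mice at postnatal day 7. The set was defined by gene symbol: 7 genes of the mevalonate pathway, 11 of the steps from squalene to cholesterol, 4 of SREBP control, 4 of fatty acid synthesis and 7 of desaturation and elongation. The platform annotation lists 60 probe sets for 31 of them, out of 22626 probe sets that are not controls and 12393 named genes. Acat2 and Insig1 had no probe set in that annotation and were not analysed here. Affymetrix arrays were hybridised with RNA of 3 C57BL/6 wildtype retinal samples and 3 knockout samples on the same labelled strain, with no treatment. Whether a sample was 1 animal or a pool is not given in the sources used here, so the spread between samples may be partly technical. In whole retina, less RNA per cell and fewer cells of a type cannot be told apart.

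A MAS5 signal is the brightness of a probe set, a group of short probes to 1 transcript, on a linear scale. Signals below are scaled so that all arrays have the same trimmed mean, and differences are of log2(signal + 19.1), knockout minus wildtype, which understates changes of dim probe sets. Each gene is represented by its probe set of highest mean signal, and levels of different probe sets cannot be compared with each other. Of the 31 genes, 30 passed the filter of a mean signal above 62.4 and were tested. Acaca, the acetyl-CoA carboxylase of the cytosol, did not pass.

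Several of these genes carry promoter letters known to bind the factors that act with SREBP. RefSeq promoter windows on GRCm38.p6, 250 bases before to 50 after the start, were found for 27 of the 33 genes. Both strands were searched for 4 motifs, and no matches of different motifs shared bases. The NF-Y box CCAAT was found for 22 of the 27 genes, and in 23 of their 33 windows, against 37.4% of all 32851 windows. The GC box GGGCGG was found for 22 genes in 25 windows, against 35.7% of all windows. The E-box CACGTG was found for 7 genes in 8 windows, against 7.15%, and the sterol element core CACCCCAC for 2 genes, Hmgcs1 and Acat2, against 2.87%. The windows of Scap overlap and share the same E-box and a GC box, which are counted in each window. A match is a description of the letters, not a bound site. The 250 bases before the start are shown for 4 genes described below, on the gene's strand with the matches in capitals. Hmgcs1 holds the sterol element core, Idi1 and Msmo1 have the highest and the lowest group difference among the genes with a window, and Fads2 holds no NF-Y box. They lie at chr13:119690101-119690350 (plus strand), chr13:8885356-8885605 (plus), chr8:64733579-64733828 (minus) and chr19:10101504-10101753 (minus).
Hmgcs1: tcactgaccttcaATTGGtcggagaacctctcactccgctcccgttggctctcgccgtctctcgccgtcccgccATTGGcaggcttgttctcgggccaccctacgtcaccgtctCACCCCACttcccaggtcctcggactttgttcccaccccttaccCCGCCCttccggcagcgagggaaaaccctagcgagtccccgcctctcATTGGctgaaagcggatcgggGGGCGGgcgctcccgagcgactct
Idi1: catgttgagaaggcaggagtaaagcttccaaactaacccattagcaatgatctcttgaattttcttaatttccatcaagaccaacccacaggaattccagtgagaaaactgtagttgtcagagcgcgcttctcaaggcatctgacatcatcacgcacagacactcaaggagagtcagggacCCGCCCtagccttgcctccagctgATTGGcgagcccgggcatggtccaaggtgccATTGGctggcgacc
Msmo1: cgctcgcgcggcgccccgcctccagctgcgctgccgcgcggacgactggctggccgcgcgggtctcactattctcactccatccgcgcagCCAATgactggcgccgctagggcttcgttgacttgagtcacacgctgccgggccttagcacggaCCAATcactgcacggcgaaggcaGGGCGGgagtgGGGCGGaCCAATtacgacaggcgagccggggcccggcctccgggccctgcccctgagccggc
Fads2: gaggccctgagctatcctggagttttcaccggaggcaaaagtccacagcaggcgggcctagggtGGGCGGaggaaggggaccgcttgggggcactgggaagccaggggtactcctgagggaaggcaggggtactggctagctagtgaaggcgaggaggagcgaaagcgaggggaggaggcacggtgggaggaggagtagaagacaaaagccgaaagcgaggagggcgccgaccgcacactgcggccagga

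The arrays differed in quality before any gene is considered. Trimmed mean signals ran from 171 to 312 before scaling. Knockout array 1 correlated with the other arrays at 0.914 to 0.936, against 0.958 to 0.979 among the other 5. The ratio of 3' to 5' signal of the Actb control was 1.64, 1.44 and 1.59 on wildtype arrays 1 to 3. On knockout arrays 1 to 3 it was 2.17, 1.69 and 1.90, each higher than on any wildtype array. RNA quality by this ratio and genotype therefore cannot be told apart. The Gapdh ratios overlapped, at 0.82 to 0.98 in wildtype against 0.88 to 1.18 in knockout. The highest 18S control signal was 2573 on wildtype array 2 and 609 on knockout array 1, against 76.0 to 115 on the rest. Of 9 measured retinal markers, all 9 were above the filter. Of markers of fat and periocular glands, 0 of 5 were, and Adipoq, Lep and Cidec stayed under 19.1 on every array.

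No gene of the set passed the test. Of 30 genes tested, 0 had a limma adjusted p under 0.05, and the lowest adjusted p was 0.999. Of all 13575 tested probe sets 0.0147% passed (2 probe sets), and of the 8159 named genes tested, with the brightest probe set of each, 0 passed. At an unadjusted p under 0.05 there were 2 members, Fdps and Msmo1, against 2.33% of the named genes and 3.82% of all probe sets. Over the 31 measured genes, 15 log2 differences were above 0 and 16 below, with a median of -0.016, a lowest of -0.67 and a highest of 0.38. All 12393 named genes, with 1 probe set each, had a median of 0.0020, with 50.4% above 0. The balance of signs rests on the scaling: 20 of 31 were above 0 with median scaling and 28 of 31 with no rescaling, where the medians of all probe sets were 0.088 and 0.29. The 95% intervals of 28 of the 30 tested genes lay within a 2-fold change in either direction, and those of 21 lay within 1.5-fold.

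**Figure D1:**
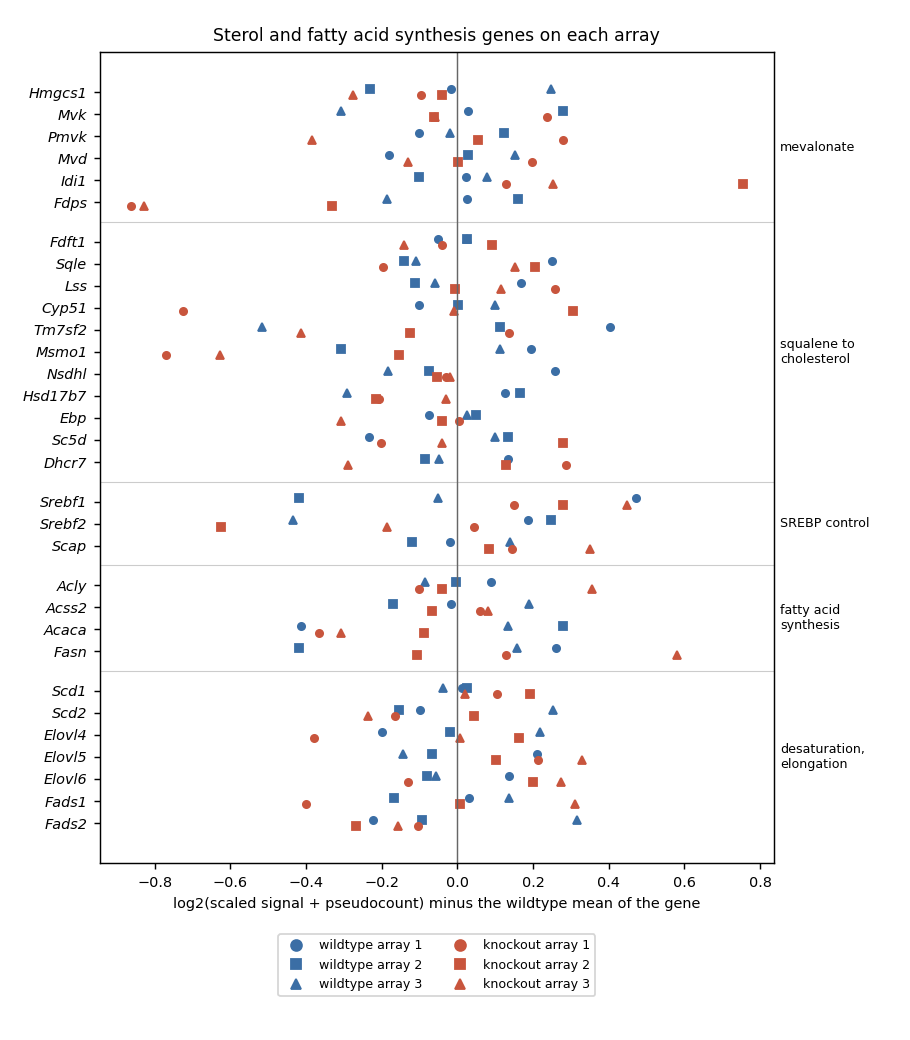
Log2(scaled signal + pseudocount) of 31 genes on each of 6 arrays, relative to the gene's wildtype mean, with genes grouped by step. Wildtype points are blue and knockout points red, the shape gives the array number, and the groups do not overlap for Fdps, which is lower in knockout, and Idi1, which is higher.

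Groups that do not overlap were found for 2 of the 31 genes, and both act at neighbouring steps of the mevalonate pathway. Of the 8159 named genes tested, 7.89% did not overlap, 4.58% with the knockout higher and 3.31% with the knockout lower, so that 2 genes are close to this share. Over all tested probe sets the shares were 9.1%, 4.05% and 5.05%. Fdps encodes farnesyl diphosphate synthase, which joins isoprene units into the last intermediate shared by sterols and protein prenylation. Its signals were 812, 892 and 698 in wildtype arrays 1 to 3 against 429, 630 and 440 in knockout arrays 1 to 3. Every knockout value lay below every wildtype value, and the means were 801 ± 97.6 and 500 ± 113 (SD, n = 3). The log2 difference was -0.67 ± 0.19 (SE), with a 95% interval of -1.10 to -0.25 (limma adjusted p = 0.999).

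Fdps was the 1 gene of 31 at least 1.5-fold apart without overlap. With the knockout lower, this held for 0.392% of the named genes tested and for 1.36% of all tested probe sets. That count was 0 with median scaling (-0.58) and 0 without knockout array 1 (-0.58), both just short of 1.5-fold. It was 2 without wildtype array 2 or without knockout array 2, when Msmo1 joined Fdps. With no rescaling the single gene was Srebf1 and not Fdps, whose difference was then -0.37. A second Fdps probe set gave signals of 0.40 to 3.78 on all 6 arrays, below the pseudocount, and cannot speak to the difference.

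Idi1 encodes the isomerase that makes the second of the isoprene units that farnesyl diphosphate synthase joins. Its signals were 273 ± 18.5 in wildtype against 368 ± 93.1 in knockout (SD, n = 3). Relative to the wildtype mean, log2 values were 0.02, -0.10 and 0.08 on wildtype arrays 1 to 3 and 0.13, 0.75 and 0.25 on knockout arrays 1 to 3. All knockout values were the higher ones, but array 1 of the knockout exceeded wildtype array 3 by little, and knockout array 2 stood well above the rest. The log2 difference was 0.38 ± 0.19 (SE, n = 3; 95% interval -0.06 to 0.82; limma adjusted p = 0.999). The other tested Idi1 probe set gave -0.08 ± 0.32 (SE), with groups that overlapped.

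The other mevalonate genes showed small differences. Hmgcs1, an HMG-CoA synthase early in the pathway, had 1315, 1132 and 1583 in wildtype against 1244, 1293 and 1097 in knockout. The groups overlapped, with a log2 difference of -0.14 ± 0.16 (SE, n = 3). The 3 other Hmgcs1 probe sets gave 0.05, 0.0023 and -0.39. Mevalonate kinase (Mvk) had 0.04, phosphomevalonate kinase (Pmvk) -0.02 and mevalonate diphosphate decarboxylase (Mvd) 0.02, with standard errors of 0.20, 0.20 and 0.18. The widest of their 95% intervals ran from -0.47 to 0.44, for Pmvk.

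Of the 11 genes from squalene to cholesterol, 4 log2 differences were above 0 and 7 below, with a median of -0.03. Msmo1, the methylsterol monooxygenase that removes the C4 methyl groups, lay farthest from 0. Its signals were 413, 286 and 389 in wildtype against 202, 320 and 225 in knockout arrays 1 to 3. Knockout arrays 1 and 3 lay below every wildtype array, while knockout array 2 lay above wildtype array 2, so the groups overlapped. The log2 difference was -0.52 ± 0.22 (SE, n = 3; 95% interval -1.001 to -0.03; limma adjusted p = 0.999).

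Nsdhl and Hsd17b7, which act with Msmo1 in C4 demethylation, had -0.03 ± 0.17 and -0.15 ± 0.18 (SE, n = 3). Nsdhl gave 519, 409 and 378 in wildtype against 422, 415 and 425 in knockout, so the knockout values lay inside the wildtype range. Hsd17b7 had 209, 215 and 152 in wildtype against 162, 161 and 186 in knockout, again overlapping, and its dimmer probe set gave -0.28. Of these 3 genes Msmo1 alone had an unadjusted p under 0.05, and differences between the 3 were not tested.

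Cyp51, the lanosterol demethylase, had 167, 181 and 195 in wildtype against 102, 228 and 179 in knockout. Knockout array 1 was the lowest and knockout array 2 the highest of all 6, and the log2 difference of -0.14 ± 0.25 (SE, n = 3) became 0.15 without knockout array 1. Its other probe sets gave -0.10 and -0.08. Squalene synthase (Fdft1) had -0.03 ± 0.15, squalene epoxidase (Sqle) 0.05 ± 0.18 and lanosterol synthase (Lss) 0.12 ± 0.17 (SE, n = 3). Sqle, often the slow step of the late pathway, had 654, 495 and 506 in wildtype against 476, 634 and 611 in knockout, so each group spanned nearly the same range. All 3 Lss probe sets were above 0, at 0.12, 0.15 and 0.20.

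The reductases and the isomerase that finish the sterol were close to 0 as well. The sterol C14 reductase Tm7sf2 had -0.13 ± 0.26, the isomerase Ebp -0.11 ± 0.16, the desaturase Sc5d 0.01 ± 0.20 and the C7 reductase Dhcr7 0.04 ± 0.19 (SE, n = 3). Tm7sf2 varied most within a group, with 190, 152 and 91.2 in wildtype against 154, 126 and 99.5 in knockout. Ebp varied least among the 4, with 325 to 356 in wildtype against 274 to 344 in knockout.

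**Figure D2:**
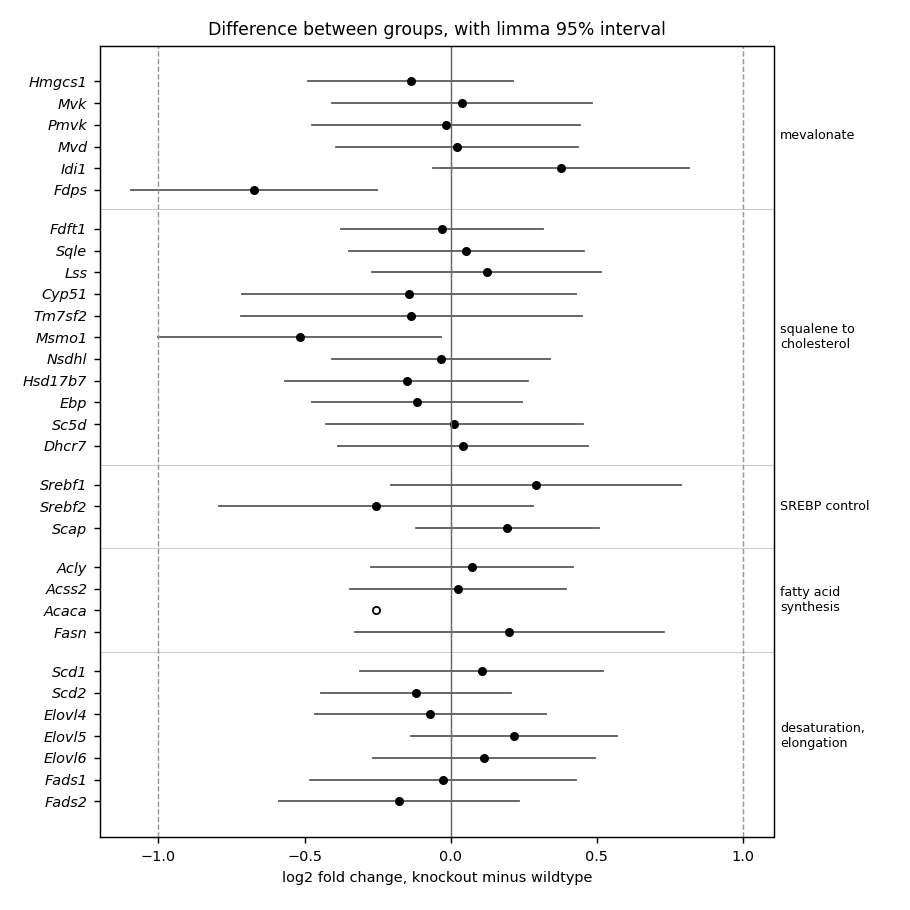
Log2 fold change, knockout minus wildtype, of 31 genes with the 95% interval from limma (3 arrays a group), and dashed lines at a 2-fold change. The intervals of Fdps and Msmo1 lie below 0, both reach past the 2-fold line, and the open circle is Acaca, which was not tested.

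The SREBP control genes had groups that overlapped in the scaled signals. Srebf1, which encodes the SREBP-1 factors, had 937, 497 and 646 in wildtype against 746, 818 and 922 in knockout arrays 1 to 3. The highest of all 6 values was wildtype array 1, and the other wildtype values lay below every knockout value. Its log2 difference was 0.29 ± 0.22 (SE, n = 3; 95% interval -0.20 to 0.79; limma adjusted p = 0.999), and it ran from 0.08 without wildtype array 2 to 0.53 without wildtype array 1. Srebf2, which encodes the SREBP-2 factor of cholesterol synthesis, had 446, 466 and 284 in wildtype against 402, 246 and 340 in knockout. The difference was -0.26 ± 0.24 (SE, n = 3), and its dimmer probe set gave -0.03. Scap, the escort protein, had 1178, 1096 and 1317 in wildtype against 1321, 1266 and 1528 in knockout. Knockout array 2 fell inside the wildtype range and knockout array 1 just above it. The difference was 0.19 ± 0.14 (SE, n = 3; 95% interval -0.12 to 0.51).

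In fatty acid synthesis, 3 of 4 log2 differences were above 0, with a median of 0.05. Fasn, the synthase that builds palmitate, had 562, 343 and 521 in wildtype against 511, 431 and 706 in knockout, a difference of 0.20 ± 0.24 (SE, n = 3). The highest value was knockout array 3 and the lowest wildtype array 2, and the difference was -0.0082 without wildtype array 2 and 0.01 without knockout array 3. Acly, the citrate lyase that supplies acetyl-CoA, had 1391, 1301 and 1230 in wildtype against 1217, 1270 and 1677 in knockout, a difference of 0.07 ± 0.15. Acss2, which makes acetyl-CoA from acetate, had 0.03 ± 0.16. Acaca, below the filter, had 43.4, 81.9 and 72.1 in wildtype against 45.4, 59.1 and 48.0 in knockout, with overlapping groups and an untested difference of -0.25.

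Of the 7 desaturases and elongases, 3 log2 differences were above 0 and 4 below, with a median of -0.03. Elovl4, the elongase of very long chain fatty acids in photoreceptors, had 1233, 1397 and 1653 in wildtype against 1086, 1591 and 1425 in knockout. The ranges largely coincided, and the difference was -0.07 ± 0.18 (SE, n = 3; 95% interval -0.46 to 0.33). Elovl5, an elongase of polyunsaturated fatty acids, had 721, 592 and 560 in wildtype against 723, 668 and 785 in knockout, a difference of 0.22 ± 0.16. Elovl6, which extends palmitate to stearate, had 0.11 ± 0.17, and its dimmer probe set 0.14. The delta-5 desaturase Fads1 had 462, 401 and 500 in wildtype against 338, 455 and 566 in knockout, so the knockout arrays spanned a wider range than the wildtype arrays, and the difference was -0.03 ± 0.20. Scd1, a stearoyl-CoA desaturase prominent in liver and skin, lay just above the filter at 66.5 to 70.4 in wildtype against 70.0 to 81.3 in knockout (0.11 ± 0.18).

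Scd2, the stearoyl-CoA desaturase known for its expression in brain, has 3 tested probe sets, and they differed among themselves. The brightest gave 2149, 2068 and 2745 in wildtype against 2052, 2374 and 1953 in knockout arrays 1 to 3. Knockout array 2 lay inside the wildtype range and the others just below it, a log2 difference of -0.12 ± 0.14 (SE, n = 3; 95% interval -0.44 to 0.21). The second, 1415823_at, gave 1279, 1212 and 1184 in wildtype against 339, 947 and 1127 in knockout. All knockout values were the lower ones, but knockout array 1 alone lay far below, and the difference of -0.76 ± 0.36 (SE) became -0.24 without that array. The third, 1415824_at, gave 361, 389 and 471 in wildtype against 110, 264 and 180 in knockout, again with knockout array 1 the lowest. Its difference was -1.13 ± 0.27 (SE; 95% interval -1.73 to -0.53; limma adjusted p = 0.999) and -0.84 without knockout array 1.

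Fads2, the delta-6 desaturase that opens polyunsaturated fatty acid synthesis, showed a like spread between its probe sets. The brighter gave 290, 319 and 430 in wildtype against 317, 280 and 305 in knockout, with overlap and a log2 difference of -0.18 ± 0.18 (SE, n = 3). The dimmer, 1449325_at, gave 206, 246 and 203 in wildtype against 88.3, 184 and 132 in knockout, all lower than wildtype. Its difference was -0.67 ± 0.24 (SE; limma adjusted p = 0.999) and -0.43 without knockout array 1.

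**Figure D3:**
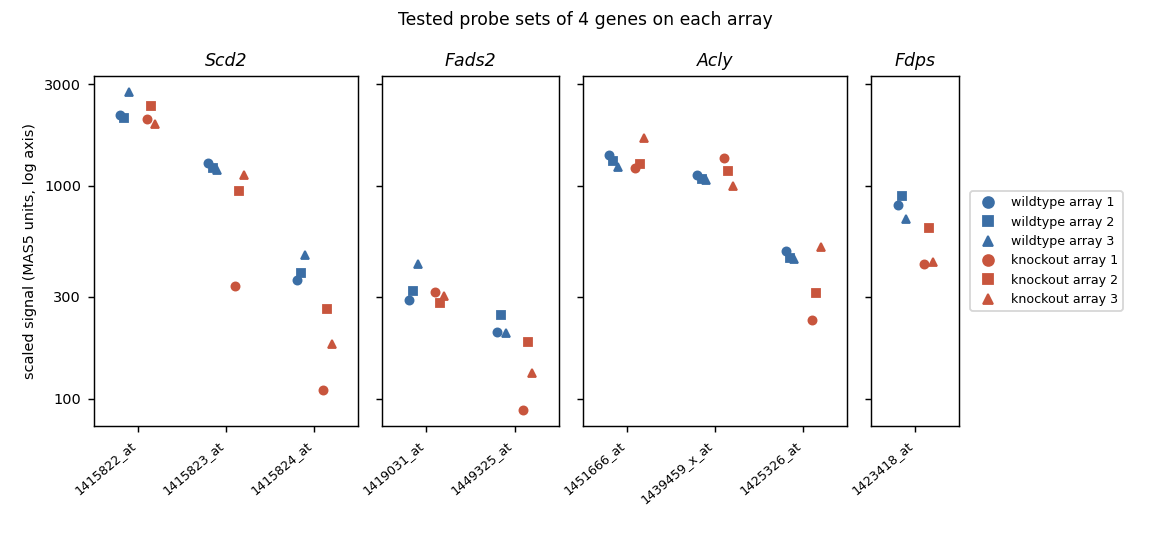
Scaled MAS5 signal, on a log axis, of every tested probe set of Scd2, Fads2, Acly and Fdps on each of 6 arrays, ordered from bright to dim within a gene. In Scd2 1415823_at, Scd2 1415824_at, Fads2 1449325_at and Fdps all red knockout points lie below the blue wildtype points. For the brightest probe sets of Scd2, Fads2 and Acly the groups overlap.

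Counted by probe set, 49 of the 60 were tested, with 22 log2 differences above 0 and 27 below and a median of -0.03. Of these 49, 4 were at least 1.5-fold lower in knockout without overlap and 0 were higher, against 1.36% and 0.25% of all tested probe sets. The 4 belong to 3 genes: Fdps, Fads2 and, with a pair of probe sets, Scd2. Knockout array 1 was the lowest of the 6 arrays in all 4. The choice of these 4 allowed only a knockout array to be the lowest, so shares over unselected probe sets are no measure for them. Without that choice, knockout array 1 was the lowest in 16 of the 49 probe sets (32.7%) and in 28.2% of all tested probe sets. Knockout array 3 was the lowest in 13 of the 49 (26.5%), against 13.9% of all tested probe sets. The highest array was knockout array 1 in 5 of the 49 (10.2%), against 25.3% of all tested probe sets. Knockout array 1 had the highest Actb 3' to 5' ratio, and that ratio was higher on every knockout array than on any wildtype array. The part of RNA quality in these values, and in the ratios of probe sets below, was not tested.

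Probe sets of 1 gene were also compared within each array, as the difference of their log2(scaled signal + 19.1), here called the log2 ratio. Among the genes with several tested probe sets, 15 in number, 19 pairs were formed of the brightest and each other probe set, a comparison chosen after the values were seen. The log2 ratio was lower in knockout in 11 pairs and higher in 8. Groups did not overlap in 3, all lower in knockout. Over 4381 such pairs of all named genes 13.5% did not overlap, 9.93% with the knockout lower, so 3 of 19 is near this share. The lowest array was knockout array 1 in 9 of 19 pairs and in 39.0% of the pairs of all named genes. For Scd2, 1415824_at against the brightest fell below the wildtype mean by 1.55, 0.63 and 0.85 in knockout arrays 1 to 3, while wildtype arrays stayed between -0.06 and 0.10. The mean log2 ratio differed by -1.01 (exact two-sided permutation p = 0.1, the smallest that 3 against 3 arrays allow; adjusted p = 0.63 over 19 pairs). From signals with no pseudocount added, when the ratio does not depend on linear scaling of the arrays, it differed by -1.10.

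The other pairs without overlap belonged to the acetyl-CoA suppliers. For Acly, 1425326_at had signals of 493, 459 and 454 in wildtype against 235, 314 and 513 in knockout, which overlapped, while its ratio to the brightest Acly probe set did not, at a mean difference of -0.53. For Acss2, 1422478_a_at gave 177, 141 and 190 in wildtype against 152, 151 and 107 in knockout, and its ratio differed by -0.30, with knockout array 3 the lowest (exact two-sided permutation p = 0.1 for each; adjusted p = 0.63 over 19 pairs). Over all 19 genes with several probe sets, tested or not, the signs were the same within 9 genes and mixed within 10.

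**Figure D4:**
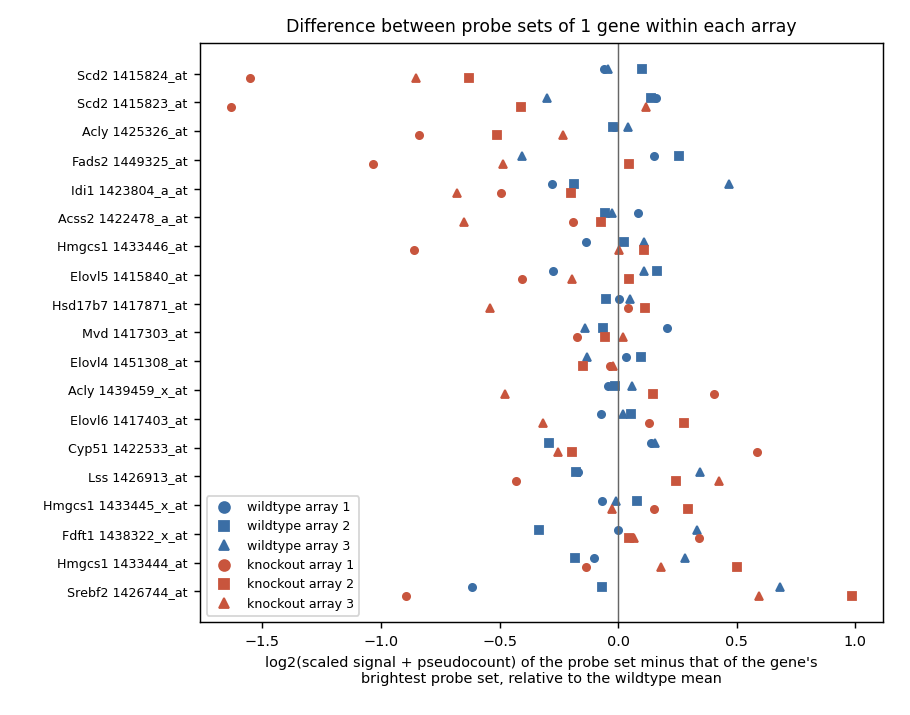
For 19 pairs of probe sets, log2(scaled signal + pseudocount) of a probe set minus that of the brightest probe set of the same gene on the same array, relative to the wildtype mean. Knockout points (red) of Scd2 1415824_at, Acly 1425326_at and Acss2 1422478_a_at all lie below the wildtype points (blue), and knockout array 1 (red circle) lies lowest in 9 of the 19 rows.

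Genes around these routes were taken from 4 further lists. Of 14 measured genes of sterol transport and sensing, 12 were tested and 0 passed the limma threshold in either direction (0 at an unadjusted p under 0.05), with 7 log2 differences above 0, 7 below and a median of -0.01. The cholesterol exporter Abca1 had 0.28 ± 0.24, the lysosomal exporter Npc1 -0.26 ± 0.25 and Erlin1, an endoplasmic reticulum protein, 0.16 ± 0.17 (SE, n = 3). Of 9 measured fatty acid oxidation genes, 8 were tested and 0 passed (0 at an unadjusted p under 0.05), with 7 above 0, 2 below and a median of 0.08. The medium chain dehydrogenase Acadm had 0.26 ± 0.16.

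Of 7 genes of the isoprenoid side branches, 0 passed the limma threshold, with 2 above 0, 5 below and a median of -0.11. An unadjusted p under 0.05 was found for 1, against 2.33% of the named genes tested. That gene, Fntb, encodes the beta subunit of farnesyltransferase, an enzyme that uses the product of Fdps. Its signals were 332, 304 and 290 in wildtype against 505, 390 and 476 in knockout. All knockout values were the higher, as in 4.58% of the named genes tested. The log2 difference was 0.53 ± 0.16 (SE, n = 3; limma adjusted p = 0.999). Dhdds, of dolichol synthesis, had -0.38 ± 0.17, and Icmt, which methylates prenylated proteins, -0.37 ± 0.20. Fnta, the alpha subunit of the same farnesyltransferase, had 0.12 ± 0.13, and was named after its value was seen.

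Of 26 measured genes of fatty acid supply, elongation and activation, 19 were tested and 0 passed the limma threshold. At an unadjusted p under 0.05 there was 1, against 2.33% of the named genes tested. Over the 26 genes, log2 differences were above 0 in 19 and below in 7, with a median of 0.06, beside 50.4% above 0 for all named genes. Tecr, the reductase that closes each elongation cycle, had 3256, 3626 and 3293 in wildtype against 2955, 2662 and 2601 in knockout. All knockout values were lower, as in 3.31% of the named genes tested, but the difference was small, at -0.31 ± 0.11 (SE, n = 3; limma adjusted p = 0.999). The fatty acid carrier Fabp5 had 0.21 ± 0.18 and the dehydratase Hacd1 0.17 ± 0.15.

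Averaged over the 31 genes, the log2 deviation from the gene means was 0.06, -0.02 and 0.01 on wildtype arrays 1 to 3, against -0.06, 0.04 and -0.02 on the knockout arrays. Both groups spanned 0. All 10 marker lists moved more than these averages, but each holds fewer genes, and means over fewer genes vary more. Within the set, the 6 mevalonate genes averaged from -0.20 on knockout array 3 to 0.095 on knockout array 2. The 11 genes from squalene to cholesterol averaged from -0.11 on knockout array 3 to 0.14 on wildtype array 1. Retinal markers deviated by -0.17 on knockout array 1 and by -0.01 to 0.07 on the others. Lens markers differed by 2.18 on the log2 scale between the lowest and the highest array, with summed signals of 319 to 2213 in wildtype against 495 to 1217 in knockout over 12 of 15 genes measured. Microglia markers deviated by 0.57 on knockout array 1 and by -0.20 to 0.08 on the others, with summed signals of 958 to 1128 in wildtype against 912 to 1784 in knockout over 8 of 8 genes. Skeletal muscle markers, 8 of 8 measured and 4 above the filter, had summed signals of 486 to 587 in wildtype against 339 to 416 in knockout. They were the 1 list of 10 whose sums did not overlap. The share of single named genes tested that did not overlap, 7.89%, is no measure for sums over a list. All 8 muscle markers had log2 differences below 0, with a median of -0.31. Of the 4 tested, 0 had an unadjusted limma p under 0.05. Of the myelin markers Mog, Mobp and Cldn11 stayed under 19.1 on every array. The part of these other cells in the values of Fdps, Msmo1, Scd2 and Fads2 was not tested.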

How the data were processed

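The deposited table gives an intensity per probe set on a linear scale, made by the authors with MAS5 per the submitters' processing notes. The version, scaling target and detection calls are not given in the sources used here. The table holds 22690 probe sets for 6 arrays, and 64 control probe sets were left out. Arrays were scaled to 1 trimmed mean (2% at each end), and log2 was taken after adding 19.1 (the 20th percentile). The 13575 probe sets whose mean over 6 arrays exceeded the 40th percentile were fitted in limma 3.58.1 (R 4.3.3; lmFit, eBayes with an intensity trend), with Benjamini-Hochberg adjustment over all of them and a threshold of 0.05. The fit was tested on simulated data. Gene names come from the platform annotation, brought up to date through Entrez identifiers. Identifiers ending in _x_at, _s_at or _a_at can detect related transcripts.

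The members, lists and alternatives were chosen with earlier results of these data known. All measured members are named, with values per array for those at least 1.5-fold apart or without overlap, for the SREBP control genes, for all probe sets of Scd2 and Fdps, and for others where a step is described. From other lists at most 3 genes are named, by the size of the moderated statistic, apart from Fnta and markers. Ratios of probe sets were compared with exact permutation tests. The targeted gene is not reported here. Alternatives were other scalings, pseudocounts, filters and variance models, a block for replicate number, weighting or leaving out arrays, and other probe sets.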

Additional observations from a re-analysis of the deposited data

How the results depend on the processing

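No member passed the limma threshold in any of the settings run, and the precision of 3 arrays a group limits every value. The count of members above 0 (15) was 28 with no rescaling, and the median (-0.016) was 0.069 with median scaling and 0.27 with no rescaling. The count of members at least 1.5-fold apart without overlap (1) was 0 with median scaling and without wildtype array 2 and knockout array 1, and from 0 to 2 when single arrays were dropped. The count of all probe sets past the threshold (2) was 10 with no rescaling, 1 without a filter and 4 without wildtype array 2 and knockout array 1, and lay between 0 and 4 when single arrays were dropped. Dropping wildtype array 3 gave 0, wildtype array 2 gave 4, and knockout array 2 or 3 gave 1. Apart from the fewer arrays and the more probe sets tested without a filter, the cause was not tested. The test of members was not run for means over probe sets. The count of probe set pairs without overlap (3) was 2 with quantile normalization, where Acss2 overlapped, 4 with the higher pseudocount and 3 with none, settings chosen after the data were seen.

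With the replicate block, 2 probe sets and 0 members passed (lowest member adjusted p = 0.58). Arrays of equal number had deviations that correlated at 0.18, -0.03 and 0.08, and 3 of 6 arrays correlated best with their own number, so the numbers were not taken as pairs.

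Of 657 recomputed values of members and their probe sets, 69 turned sign. With no rescaling these were Hmgcs1 (0.17), Pmvk (0.27), Fdft1 (0.27), Cyp51 (0.14), Tm7sf2 (0.15), Nsdhl (0.27), Hsd17b7 (0.14), Ebp (0.18), Srebf2 (0.048), Scd2 (0.20), Elovl4 (0.24), Fads1 (0.27) and Fads2 (0.12), where the median of all probe sets was 0.29. With median scaling they were Pmvk (0.069), Fdft1 (0.058), Nsdhl (0.056), Elovl4 (0.024) and Fads1 (0.064), and with quantile normalization Pmvk (0.017). With array weights they were Mvk (-0.11), Mvd (-0.0057), Cyp51 (0.060), Dhcr7 (-0.079), Elovl4 (0.081), Fads1 (0.15) and the dim Fdps probe set (-0.016). Without wildtype array 2 and knockout array 1 they were Mvd (-0.051), Lss (-0.00044), Cyp51 (0.15), Dhcr7 (-0.12), Acss2 (-0.078), Elovl4 (0.075) and Fads1 (0.076). As means over tested probe sets Mvd (-0.012), Fdft1 (0.046), Acly (-0.095) and Acss2 (-0.13) turned, and with probe sets of shared transcripts avoided Hmgcs1 (0.046) and Mvd (-0.047).

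With 1 array left out, values ranged across 0 for Mvk (-0.12 to 0.18), Pmvk (-0.16 to 0.17), Mvd (-0.067 to 0.10), Fdft1 (-0.091 to 0.025), Sqle (-0.021 to 0.18), Cyp51 (-0.37 to 0.15), Tm7sf2 (-0.39 to 0.068), Nsdhl (-0.13 to 0.094), Sc5d (-0.12 to 0.12), Dhcr7 (-0.081 to 0.21), Acly (-0.070 to 0.16), Acss2 (-0.060 to 0.12), Fasn (-0.0082 to 0.36), Scd2 (-0.20 to 0.0073), Elovl4 (-0.19 to 0.086), Fads1 (-0.20 to 0.16) and the dim Fdps probe set (-0.046 to 0.057). Fdps (-0.85 to -0.58), Msmo1 (-0.70 to -0.39) and Idi1 (0.19 to 0.50) kept their sign in every setting run. The same held for Srebf1, Scap, Acaca, Scd1, Elovl5, Elovl6 and the dimmer probe sets of Scd2 and Fads2. Some of these differences were small, as for Scd1 (0.062 to 0.15) and Elovl6 (0.035 to 0.24). A kept sign was therefore not particular to Fdps, Msmo1 and Idi1.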
